A study of Mus musculus with 8 samples.

Results

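Livers of female and male mice that lacked Keap1 were compared, with Keap1 deleted on both sides of the comparison. Of the 8 arrays of the series, 4 enter it: 2 AKP::Keap1 females, with the codes KPKF1 and KPKF2 in their titles, and 2 AKP::Keap1 males, KPKM1 and KPKM2. An activated oncogene together with mutant p53 (R172H) was introduced into the liver of all 8 mice, with liver-specific expression of both according to the series' text. The AKP::Keap1 mice in addition lost Keap1, and the 2 AKP females and 2 AKP males kept it. The promoter that drives the alleles and the ages of the mice are not given in the sources used here. RNA came from whole liver, so less RNA of a gene per cell and fewer cells of the type that makes it cannot be told apart. Each mouse gave 1 array with a single colour, n is 2 mice per group, and only autosomal genes were counted.

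The liver is one of the tissues in which females and males differ most in gene expression. In rodents the pituitary releases growth hormone in separate pulses in males and almost continuously in females, and hepatocytes read this pattern through the growth hormone receptor and the transcription factor STAT5. Genes of steroid, drug and pheromone handling are the classic targets: sulfotransferases and some P450 enzymes in females, and major urinary proteins, Cyp4a12 and Hsd3b5 in males. Keap1 holds the transcription factor Nrf2 in check, and its loss raises Nrf2 targets such as glutathione and detoxification enzymes.

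Between 68.7% and 70.7% of spots were well above background on the 4 AKP::Keap1 arrays, and none was saturated. Sex chromosome transcripts matched the labelled sex on 4 of 4 arrays. The 2 males correlated at 0.9919 and the 2 females at 0.9895 across genes, which are not independent replicates. All levels below are log2 of the processed signal minus the 75th percentile of the same array, which lay at 10.58 and 10.51 in the males and at 10.01 and 10.30 in the females before it was subtracted. Each slide holds 1 group, and the males and the females were scanned on different days, so slide, scan day and sex cannot be told apart in any value that follows.

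Keap1, the adaptor that marks Nrf2 for degradation, was low on all 4 AKP::Keap1 arrays. Its level was -1.35 and -1.40 in the males and -0.52 and -0.72 in the females, against 1.83 and 2.14 in AKP males and 1.68 and 1.77 in AKP females. Both AKP::Keap1 females lay above both AKP::Keap1 males. The difference, 0.75 ± 0.15 (SE), did not pass the threshold with an adjusted p of 0.0534. It passed in 4 of the alternatives, which the closing part gives. The sources used here do not tell if this probe sits within the sequence that was removed.

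A small share of genes was called between the female and male livers, and some of these differed by more than 256-fold. Steroid sulfotransferases, Cyp3a44 and organic anion carriers were high in the females, and Hsd3b5, Cyp4a12 enzymes, Elovl3 and major urinary proteins were high in the males. Among 15282 autosomal genes tested, 572 were called, which is 3.74%. A gene is called at an adjusted p below 0.05 in limma, two-sided, with p-values adjusted over all 15834 genes. Of these, 179 (1.17%) were higher and 393 (2.57%) lower in females than in males. A difference of at least 4-fold was reached by 36 called genes that were higher and 132 that were lower in females, of at least 16-fold by 16 and 18, and of at least 256-fold by 8 and 4. These counts use the bound described below for genes whose dim side had no array well above background. The median difference over all autosomal genes was 0.02.

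That split towards males was uneven over signal strength. Of 4 equal bins of genes by mean level, the dimmest held 46 that were higher and 207 that were lower in females, and the brightest held 43 and 45. When only genes above the median level were fitted, 160 were higher and 142 lower, and after a normexp background correction the split was 285 to 289. The number of calls depended on each of the 4 arrays: 255 genes were called without the first male, 176 without the second, 261 without the first female and 316 without the second. Without scaling between arrays 83 genes were higher and 1597 lower, at a shift of all genes of -0.37. With these 4 arrays fitted alone 348 genes were called.

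Sulfotransferases, which attach sulfate to steroids, bile acids and drugs, gave the largest female differences. Of 15 family members tested, 8 were higher in females, 0 were lower and 7 were not called, where 1.17% of all autosomal genes were called higher. Sult2a1, a hydroxysteroid sulfotransferase, read -6.27 and -6.20 in the males and 5.61 and 6.04 in the females. The sexes stood far apart, with a difference of 12.06 ± 0.21 (SE, adjusted p = 8.15e-06) or 4262-fold. Its relative Sult2a2 read -5.81 and -5.50 in the males and 5.67 and 5.80 in the females, a difference of 11.39 ± 0.28 (adjusted p = 3.37e-05).

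Other members of the group were barely measurable in males. Sult2a6 read 4.91 and 5.40 in the females and was not well above background on either male array, so that it was at least 3752-fold higher in females (adjusted p = 0.000394). Sult3a1 read 2.04 and 1.67 in the females and was likewise not well above background in males, at least 376-fold lower than in females (adjusted p = 0.0036). Such a bound sets the bright side's mean against the lowest signal well above background on each array of the dim side. Sult2a4 was well above background on 1 of 2 male arrays and differed by 11.62 ± 0.84 (adjusted p = 0.00185). Sult3a2 was at least 2.42-fold higher in females (adjusted p = 0.0363). Genes of the Sult2a group resemble each other in sequence, and cross-hybridisation between their probes was not tested.

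Smaller female differences extended to Sult1 enzymes that act on phenols and catecholamines, which were picked for description after their values were seen. Sult1a1 read 4.30 and 4.43 in males and 5.64 and 5.50 in females, a difference of 1.20 ± 0.22 (adjusted p = 0.041). Sult1d1 differed by 1.34 ± 0.24 (adjusted p = 0.0398). Both had a difference near 0 in AKP livers, 0.10 and 0.14, while the change between genotypes was not called (1.10 and 1.19, adjusted p = 0.112 and 0.115).

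Drug-metabolising oxidases followed the sulfotransferases. Cyp3a44, a steroid and drug hydroxylase, read -5.79 and -5.63 in the males and 4.13 and 3.98 in the females, 871-fold higher in females (9.77 ± 0.73, adjusted p = 0.00207). The flavin monooxygenases Fmo1 and Fmo2 were higher in females by 0.92 ± 0.14 and 1.36 ± 0.23 (adjusted p = 0.026 and 0.0322).

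Among the other P450 enzymes the values of the 2 males lay apart. Cyp2b13 read -1.39 and -4.09 in the males and 4.51 and 4.58 in the females. Its difference was 7.28 ± 1.18 (adjusted p = 0.0302), and the call was lost without the second male, with an adjusted p of 0.125, and without either female (0.103 and 0.115). It was also lost without either AKP female, with the 4 arrays fitted alone and with a replicate block, at adjusted p-values from 0.0516 to 0.064. Cyp3a41b differed by 3.29 ± 0.51 (adjusted p = 0.0268) and Cyp2a22 by 3.69 ± 0.44 (adjusted p = 0.0105). Cyp2b9 was not called although its females, at 1.73 and 2.07, lay above its males at -1.50 and -3.93 (4.61 ± 1.17, adjusted p = 0.0905). Of 83 P450 genes tested, 8 were higher and 7 lower in females and 68 were not called, beside 1.17% and 2.57% of all autosomal genes called higher and lower.

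Organic anion carriers and an acid oxidase were also among the largest female differences. Slc22a26, Slc22a27 and Slc22a29 belong to the organic anion carriers of the Slc22 family. Slc22a26 read -6.60 and -5.86 in the males, well above background on 1 of 2 arrays, and 2.02 and 1.53 in the females (8.0 ± 0.88, adjusted p = 0.00772). Slc22a27 differed by 7.22 ± 0.47 (adjusted p = 0.00139) and Slc22a29 was at least 57.0-fold higher in females (adjusted p = 0.00276). Hao2, a peroxisomal hydroxyacid oxidase, read 1.45 and 1.13 in females and was not well above background in males, at least 257-fold lower than in females (adjusted p = 0.00127). A1bg, a plasma glycoprotein, was at least 27.3-fold higher (adjusted p = 0.00581) and Hsd3b1, a steroid dehydrogenase, at least 14.6-fold higher in females (adjusted p = 0.0471).

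Cd209f, a lectin of the CD209 family, read -5.14 and -5.32 in the males and -0.52 and 0.16 in the females (5.05 ± 0.54, adjusted p = 0.00696). The Slc22a26 call was lost without either male or without the first female, with adjusted p-values from 0.0503 to 0.0528. Cd209f lost its call without the second male (0.0581). Hsd3b1, whose females read -1.41 and -4.28, lost its call in most alternatives, with an adjusted p of 0.178 without the second male.

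**Figure D1:**
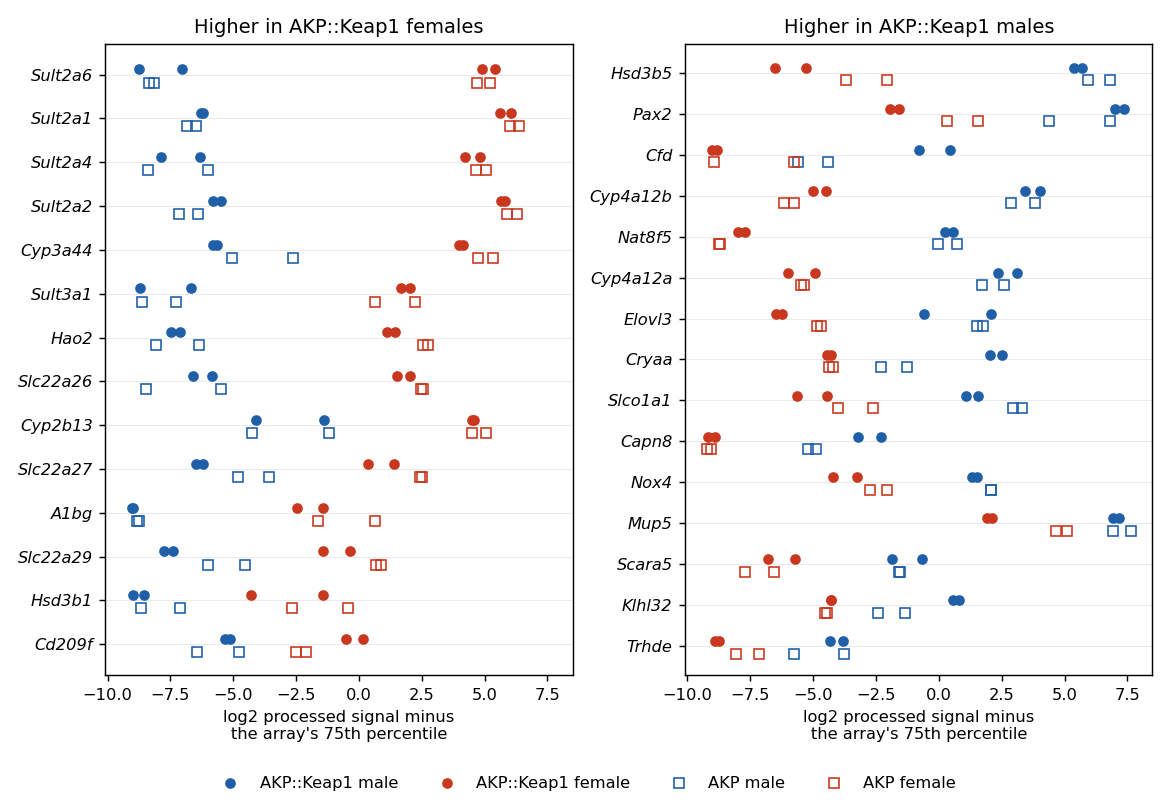
Level of each gene on each array, as log2 processed signal relative to the array's 75th percentile, for the largest called differences in each direction between AKP::Keap1 females (red circles) and males (blue circles). Open squares give the AKP arrays. In the left panel every red circle lies right of every blue one, up to a difference of 12.06 for Sult2a1 among genes measured in both sexes, and in the right panel every red circle lies left, down to -11.42 for Hsd3b5.

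Textbook female-biased liver genes were listed as a group of 39, of which 3 had no named probe, 1 did not pass the filter on dim probes and 35 were tested. Of these, 20 were higher and 0 lower in AKP::Keap1 females, and 15 were not called. Over all autosomal genes 1.17% were called higher and 2.57% lower, the background for every count of called list members in this comparison. The list's median difference was 3.44 beside 0.02 for all autosomal genes. At an unadjusted p below 0.05, 31 were higher and 0 lower, beside 11.3% of all autosomal genes that were higher and 10.3% that were lower at that level; these shares are the background for every unadjusted count below. Both females lay above both males at 33 of the 35, beside 29.1% of all autosomal genes. Called members beyond those above include Cux2, a repressor of male-type genes that is itself a classic female marker of liver, which read -7.68 and -6.05 in males and -1.97 and -2.30 in females (4.73 ± 0.49, adjusted p = 0.0062). Hamp2, a relative of the iron hormone hepcidin, read 2.41 and 1.87 in males and 5.74 and 6.31 in females (3.89 ± 0.35, adjusted p = 0.00375). Acot3, a peroxisomal acyl-CoA thioesterase, and Abcd2, a peroxisomal transporter of fatty acids, were higher by 4.51 ± 0.82 and 1.85 ± 0.31 (adjusted p = 0.043 and 0.033).

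Several members of that list did not separate the sexes. Cyp2g1 read -0.39 and -0.16 in males and -0.11 and -0.62 in females, with a difference of -0.09 ± 0.54 (adjusted p = 0.943), the only negative one. Cyp2a4, a testosterone hydroxylase, read 7.98 and 8.09 in males and 8.27 and 8.05 in females (0.13 ± 0.25, adjusted p = 0.819). In both, the AKP::Keap1 males were about as high as the females, whereas AKP males read -3.17 and -2.58 for Cyp2g1 and 6.39 and 7.09 for Cyp2a4. Prlr, the prolactin receptor (1.79 ± 0.50), and the lipid hydroxylase Cyp4a14 (2.69 ± 1.68) had female values above male ones without passing the threshold (adjusted p = 0.115 and 0.405). The count of 20 depended on the arrays: it was 13 without the second male, 12 without the first female and 13 without the second.

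STAT5, which carries the growth hormone signal, binds DNA at the letters TTCNNNGAA, where N is any base; the reverse complement has the same letters, so 1 search covers both strands. Promoters of some called list members that hold these letters are shown so that the letters can be seen in place. They were picked for the match, and promoters without it are not shown. In RefSeq promoters of assembly GRCm38.p6, 12127 of the autosomal genes tested had a sequence by symbol, and 1064 of these (8.77%) held the letters within 250 bases before and 50 after the start. They stood in 5 of 15 called members of the female-biased list that had a promoter sequence and in 2 of 12 called members of the male-biased list. A match is a description of the sequence and no measured binding site. The 250 bases before the start follow for 3 genes that were higher and 1 that was lower in females, with the matching letters in capitals.
Slc22a26 promoter, chr19:7802668-7802917, minus strand: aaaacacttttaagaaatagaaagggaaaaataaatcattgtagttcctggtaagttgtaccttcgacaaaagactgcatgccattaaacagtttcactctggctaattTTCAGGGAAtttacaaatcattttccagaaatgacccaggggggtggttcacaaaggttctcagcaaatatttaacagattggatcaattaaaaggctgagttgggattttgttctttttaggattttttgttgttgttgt
A1bg promoter, chr15:60921271-60921520, minus strand: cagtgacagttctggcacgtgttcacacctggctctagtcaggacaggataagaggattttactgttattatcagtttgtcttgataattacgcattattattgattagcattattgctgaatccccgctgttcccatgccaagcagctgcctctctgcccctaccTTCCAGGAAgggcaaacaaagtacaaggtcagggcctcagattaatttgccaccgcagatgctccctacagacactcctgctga
Hamp2 promoter, chr7:30924182-30924431, minus strand: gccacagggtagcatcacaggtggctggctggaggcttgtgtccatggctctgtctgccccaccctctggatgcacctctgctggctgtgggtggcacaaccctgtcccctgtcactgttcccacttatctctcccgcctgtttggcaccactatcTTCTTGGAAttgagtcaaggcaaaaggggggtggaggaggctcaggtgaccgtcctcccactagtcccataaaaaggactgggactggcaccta
Nox4 promoter, chr7:87246399-87246648, plus strand: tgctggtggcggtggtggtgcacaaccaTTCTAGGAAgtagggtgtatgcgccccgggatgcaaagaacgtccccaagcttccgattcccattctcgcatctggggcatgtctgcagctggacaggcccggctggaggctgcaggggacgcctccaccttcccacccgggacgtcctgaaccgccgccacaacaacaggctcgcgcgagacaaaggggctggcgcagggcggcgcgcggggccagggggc
Counted from the transcription start, the first capital stands at -141 in Slc22a26, at -84 in A1bg, at -94 in Hamp2 and at -222 in Nox4.

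Male livers were set apart by steroid, fatty acid and pheromone-carrier genes. Hsd3b5, a male-specific ketosteroid reductase, read 5.69 and 5.37 in the males and -5.28 and -6.51 in the females, where it was well above background on 1 of 2 arrays. The difference was -11.42 ± 0.64 (adjusted p = 0.000907), about as large as that of the top sulfotransferases. Cyp4a12b and Cyp4a12a, hydroxylases of arachidonic acid, read 4.04 and 3.42 and 3.09 and 2.35 in the males. In the females they read -4.50 and -5.02 and -4.94 and -5.99, a difference of -8.49 ± 0.39 (adjusted p = 0.000565) and -8.19 ± 0.46 (adjusted p = 0.000907).

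Lipid and organic anion genes also differed widely. Elovl3, which elongates saturated fatty acids, read 2.08 and -0.58 in the males and -6.22 and -6.49 in the females (-7.11 ± 0.77, adjusted p = 0.00728). Its call was lost when the 4 arrays were fitted alone (adjusted p = 0.0528). Slco1a1, an organic anion uptake carrier, read 1.54 and 1.08 in males and -4.43 and -5.62 in females (-6.34 ± 0.56, adjusted p = 0.0036). Nox4, an NADPH oxidase, read 1.52 and 1.31 in males and -3.25 and -4.22 in females (-5.15 ± 0.35, adjusted p = 0.00164). Scara5, a ferritin receptor, differed by -4.98 ± 0.57 (adjusted p = 0.00897) on the probe used and by -0.55 on its other probe, and its call was lost without the second male (adjusted p = 0.0515).

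Major urinary proteins, lipocalins that carry pheromones into urine, were lower in females at 8 of 8 genes tested, where 2.57% of all autosomal genes were called lower. Mup5 read 6.93 and 7.17 in males and 1.93 and 2.13 in females, a difference of -5.01 ± 0.28 (adjusted p = 0.000907) or 32.3-fold. Mup21 fell by 4.04 ± 0.28, Mup2 by 3.05 ± 0.26, Mup20 by 2.46 ± 0.23 and Mup3 by 2.23 ± 0.16 from male to female (adjusted p = 0.00164, 0.00331, 0.00455 and 0.00178). The smallest difference of the family was -0.97, at Mup19, which lies outside the lists and was named after its values were seen. Mup genes are near-identical copies, so the value of a single member is uncertain.

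Terminal complement proteins build the pore that lyses microbes, and 4 of the 5 genes tested were lower in females, beside 2.57% of all autosomal genes. C6 read 1.98 and 2.30 in males and -0.75 and -0.32 in females (-2.67 ± 0.26, adjusted p = 0.00509). C8b differed by -2.35 ± 0.30 (adjusted p = 0.0131) and C9 by -1.93 ± 0.33 (adjusted p = 0.035). Among other male-biased genes, the bile acid and oxysterol hydroxylase Cyp7b1 differed by -3.21 ± 0.33 (adjusted p = 0.00653), Nudt7, a peroxisomal CoA hydrolase, by -2.94 ± 0.27 (adjusted p = 0.00427) and the steroid hydroxylase Cyp2d9 by -2.60 ± 0.19 (adjusted p = 0.00185). Keg1, a member of the glycine acyltransferase family, showed the smallest called difference towards males in the list, -1.36 ± 0.26 (adjusted p = 0.046).

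Of 35 listed male-biased genes 4 had no named probe and 31 were tested. In AKP::Keap1 females 19 were called lower and 1 higher, beside 2.57% and 1.17% of all autosomal genes. The other 11 were not called, and the list's median difference was -2.61. Both females lay below both males at 27 of the 31, beside 25.9% of all autosomal genes. The exception was Hsd11b1, which regenerates active glucocorticoid: it read 5.59 and 5.15 in males and 6.54 and 6.30 in females (1.05 ± 0.19, adjusted p = 0.043). Both glutathione transferases of the pi class, whose expression in mouse liver is known to be higher in males, were not called. Gstp1 read 7.17 and 7.19 in males and 6.83 and 6.64 in females (-0.44 ± 0.15, adjusted p = 0.164), and Gstp2 differed by -0.04 ± 0.17 (adjusted p = 0.924). Moxd1 read -3.12 and 2.31 in the males, an uneven pair, and was not well above background in either female (adjusted p = 0.18). Bcl6, a repressor of female-type genes, also had uneven males at 1.72 and 4.03 and was not called (-1.79 ± 0.83, adjusted p = 0.276).

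Large male differences were not confined to known male-biased genes. Pax2, a transcription factor of kidney development, read 7.01 and 7.35 in males and -1.92 and -1.60 in females on the probe used (-8.94 ± 0.79, adjusted p = 0.00367), while its other probe differed by -1.25. Nat8f5, an acetyltransferase family member, read 0.58 and 0.25 in males and was at least 140.0-fold lower in females, where it was not well above background (adjusted p = 0.000136). Cryaa, the lens protein alpha-crystallin A, read 2.05 and 2.50 in males and -4.28 and -4.45 in females (-6.64 ± 0.34, adjusted p = 0.000789).

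The remaining genes of the 15 were dim in females or rested on 1 probe. Capn8, a calpain protease, and Trhde, a peptidase that degrades thyrotropin-releasing hormone, were at least 15.5-fold and 6.23-fold lower in females (adjusted p = 0.000774 and 0.0166). Trhde lost its call without any 1 of the 4 arrays, with adjusted p-values of 0.0867 and 0.0833 without a male and 0.0861 and 0.0692 without a female. Klhl32, a Kelch-domain protein, differed by -4.96 ± 0.34 (adjusted p = 0.00164) on the probe used and by 0.70 on its other probe. Such disagreement was not rare: of 113 called genes with several probes, 36 had probes of opposite sign.

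Cfd, the complement factor adipsin and a marker of fat tissue, read -0.80 and 0.44 in the males and was not well above background in either female, at least 92.8-fold lower (adjusted p = 0.0101). The call was lost without the second male and without either female, with adjusted p-values from 0.0508 to 0.0739. Of 8 adipose tissue markers 4 were tested, and Cfd and Retn, which encodes resistin (-0.90 ± 0.17, adjusted p = 0.0495), were lower in females. The mean level of those 4 was 0.53 and 0.09 in males and -1.83 and -1.84 in females, while their median difference was -0.27. Cfd had the lowest difference of them, -8.75, on female signals not well above background, and it weighs most in that mean. Fabp4 (0.37 ± 0.19) and Car3 (0.72 ± 0.78) were not called, and the part of fat tissue in these values was not tested. Skeletal muscle markers were led by the myosin heavy chain Myh2, at least 3.37-fold lower in females (adjusted p = 0.0209), while the other 4 tested were not called.

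Genes that carry the growth hormone signal did not pass the threshold themselves. Of 22 tested members of growth hormone, prolactin and steroid receptor signalling, 0 were called in limma; at an unadjusted p below 0.05, 3 were higher and 2 lower in females, close to the background shares of 11.3% and 10.3%. The growth hormone receptor Ghr read 4.43 and 4.39 in males and 4.35 and 4.17 in females (-0.15 ± 0.14, adjusted p = 0.574). Stat5b read 2.46 and 1.95 in males and 2.62 and 2.09 in females (0.15 ± 0.27, adjusted p = 0.797), and Igf1, the main hormone made under growth hormone, differed by 0.01 ± 0.23 (adjusted p = 0.986). The values of the sexes overlapped for Stat5b and Igf1, and both females lay just below both males for Ghr.

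Feedback inhibitors and steroid receptors of the same axis varied more between mice. Socs3, an inhibitor of cytokine signalling, read 2.0 and 3.51 in males and 0.63 and 1.58 in females (-1.65 ± 0.56, adjusted p = 0.167). Cish, a STAT5 target, read 2.78 and -0.41 in the males, far apart, and 0.71 and 0.93 in the females. Socs2 differed by 0.62 ± 0.69 (adjusted p = 0.648) and the oestrogen receptor Esr1 by 0.92 ± 0.35 (adjusted p = 0.199). The carrier Igfbp2 read 3.49 and 1.76 in males and 4.81 and 3.69 in females (1.62 ± 0.62, adjusted p = 0.201).

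Of the listed Nrf2 targets 2 were called between the sexes. Of 17 glutathione and thioredoxin genes 0 were called in limma, with a median of 0.11 and, at an unadjusted p, 1 higher and 1 lower. Srxn1, a sulfiredoxin, had the smallest p (0.59 ± 0.16, adjusted p = 0.106), followed by Txnrd1, a thioredoxin reductase (-0.39 ± 0.15, adjusted p = 0.21). Of 37 detoxification and transport genes 2 were called higher in females, where 1.17% of all autosomal genes were. The other 35 were not called, and the list's median was 0.20. Gstm2, a mu-class glutathione transferase, read 4.79 and 4.76 in males and 5.69 and 5.58 in females (0.86 ± 0.12, adjusted p = 0.0188). Mgst3, a microsomal glutathione transferase, read 1.54 and 1.04 in males and 3.13 and 3.12 in females (1.83 ± 0.34, adjusted p = 0.0448).

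Among hepatocyte markers 2 genes were called, and among bile duct markers 0. Of 28 tested hepatocyte genes 2 were called higher in females, where 1.17% of all autosomal genes were. They were the P450 Cyp2c29 (1.41 ± 0.16, adjusted p = 0.00942) and Hpd of tyrosine breakdown (0.76 ± 0.13, adjusted p = 0.0338), and the list's median was 0.06. The mean level of the hepatocyte list was 5.17 and 5.12 in males and 5.46 and 5.15 in females. For 28 bile duct genes the mean was 0.20 and 0.19 in males and -0.24 and 0.53 in females, so the 2 females lay on either side of the males. In that list 0 were called, and 1 was higher and 2 were lower at an unadjusted p. Among 11 mucin-type epithelial genes and 14 fetal liver and liver tumour genes 0 were called, with 1 higher and 1 lower and with 3 higher and 0 lower at an unadjusted p.

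No cell cycle gene was called. Of 27 tested 0 passed the threshold in limma, yet 26 had a positive difference, beside 7927 of all 15282 autosomal genes. At an unadjusted p 16 of the 27 were higher and 0 lower, where 11.3% and 10.3% of all autosomal genes were. The median of the cell cycle genes was 0.78. Their mean level was -1.46 and -1.48 in the males and -0.38 and -1.16 in the females, so the first female stood well above the second. Mcm5, a subunit of the replicative helicase, read -0.93 in both males and 0.34 and -0.14 in the females (1.03 ± 0.23, adjusted p = 0.0657). Plk1, a mitotic kinase, read -1.95 and -2.11 in the males and -0.07 and -1.08 in the females (1.46 ± 0.33, adjusted p = 0.0737).

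A few sterol genes were called, all higher in females. Of 22 cholesterol synthesis genes 3 were called higher in females and 0 lower, beside 1.17% and 2.57% of all autosomal genes. The other 19 were not called. The list's median was 0.76, with 12 higher and 0 lower at an unadjusted p (background 11.3% and 10.3%). Cyp51, the lanosterol demethylase, read 1.29 and 1.47 in males and 3.06 and 2.32 in females (1.31 ± 0.25, adjusted p = 0.0496). Tm7sf2, a sterol reductase, differed by 1.18 ± 0.17 (adjusted p = 0.0195) and Insig1, which restrains the pathway, by 0.89 ± 0.13 (adjusted p = 0.0217). Of 17 bile acid genes 3 were called higher, where 1.17% of all autosomal genes were. They were the sterol exporters Abcg5 (0.94 ± 0.12, adjusted p = 0.0124) and Abcg8 (1.0 ± 0.14, adjusted p = 0.0163) and the uptake carrier Slco1a4 (3.08 ± 0.53, adjusted p = 0.0363). Slco1a4 read -1.07 and -2.32 in males and 1.79 and 0.98 in females, the opposite of its relative Slco1a1. Cyp7a1, the rate-limiting enzyme of bile acid synthesis, read -1.23 and 0.52 in males and 0.47 and 1.18 in females and was not called (adjusted p = 0.286).

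Among 24 fatty acid oxidation genes 0 were called, with 4 higher and 0 lower at an unadjusted p, and among 23 lipogenesis genes the fatty acid transporter Cd36 was higher in females (0.80 ± 0.14, adjusted p = 0.04). Of 21 acute phase and complement genes C9 alone was called, and their mean level was 4.56 and 5.73 in males and 4.64 and 4.58 in females, so the second male stood above the other 3 livers. Among 17 clock genes 0 were called and 0 had an unadjusted p below 0.05 in either direction, with a median of -0.62. In endoplasmic reticulum and amino acid stress 0 of 15 were called and 2 were lower at an unadjusted p, led by the asparagine synthetase Asns (-3.30 ± 0.76, adjusted p = 0.0744).

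Some markers of immune and stromal cells were called, where 1.17% of all autosomal genes were called higher and 2.57% lower. Of 17 T and NK cell genes 1 was called, the NK receptor Ncr1 (1.77 ± 0.28, adjusted p = 0.0295), and the list's median was 0.78. At an unadjusted p below 0.05, 11 of the 17 were higher and 1 was lower in females. The mean level of the T and NK cell genes was -2.74 and -2.49 in males and -1.79 and -2.05 in females, without overlap. In 20 macrophage, 10 Kupffer cell, 9 B and plasma cell and 17 endothelial genes 0 were called, and at an unadjusted p 6, 4, 4 and 4 were higher while 0, 0, 1 and 0 were lower, where 11.3% and 10.3% of all autosomal genes were. For 14 neutrophil and 3 red blood cell genes 0 were called and 0 had an unadjusted p below 0.05. Of 23 stellate cell and fibrosis genes the matrix protein Sparc (0.89 ± 0.15, adjusted p = 0.0364) and the nerve growth factor receptor Ngfr (0.90 ± 0.17, adjusted p = 0.048) were higher in females. Among 9 pancreatic acinar genes the amylase Amy2a5 was higher in females (1.16 ± 0.20, adjusted p = 0.0367), with a mean level of the list of -4.36 and -4.50 in males and -4.05 and -4.03 in females. The part of these cells in the sex differences was not tested.

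**Figure D2:**
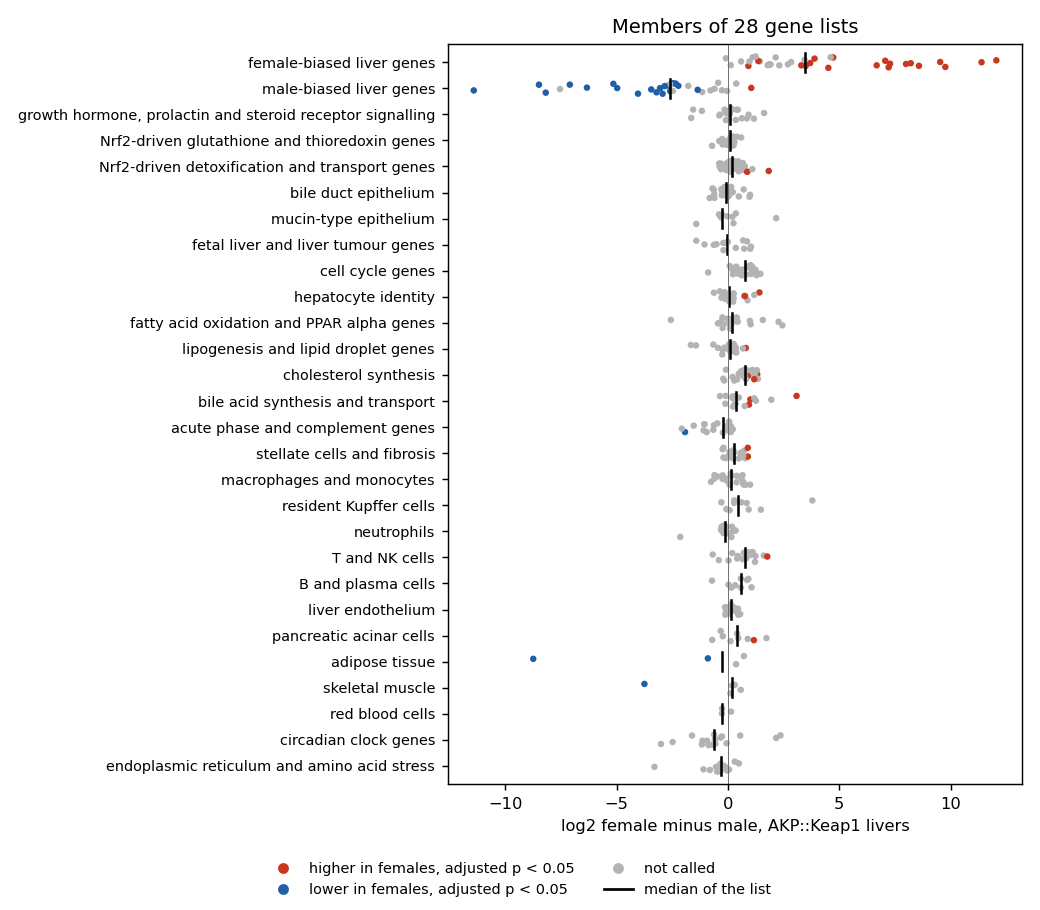
Difference between AKP::Keap1 females and males on the log2 scale for each tested member of 28 gene lists, 1 point per gene, with called genes in red or blue and the median as a black bar. The medians of the female-biased (3.44) and male-biased (-2.61) lists stand away from 0. Those of cell cycle (0.78), cholesterol synthesis (0.76) and T and NK cell genes (0.78) lie to the right. In these 3 lists 0 of 27, 3 of 22 and 1 of 17 members were called higher, beside 1.17% of all autosomal genes.

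The same contrast in livers that kept Keap1 shows how far the sex difference was shared. In AKP livers 2963 of the 15282 genes were called (19.4%), 1465 higher (9.59%) and 1498 lower (9.8%) in females. This comparison shares no array with the one in AKP::Keap1, but both share the scan days and the fitted spread of each gene. Males of both genotypes were scanned on 1 day and females on another, so a shared direction cannot be told apart from scan day. Of the 572 genes called in AKP::Keap1, 459 (80.2%) had the same sign in AKP, beside 61.6% of all autosomal genes. Both contrasts called 251 genes, 238 in the same direction and 13 in opposite ones. Those 238 are 41.6% of the AKP::Keap1 calls and 8.03% of the AKP calls. The AKP count itself moved widely, to 325 and 1369 without the first and second AKP male, to 403 and 997 without the first and second AKP female and to 4588, of which 954 were higher, with array medians aligned, and the overlaps were not recomputed for these fits. Genes higher in females were more often called the same way in AKP (95 of 179, 53.1%) than genes higher in males (143 of 393, 36.4%), a contrast that was not tested.

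The values of 3 leading genes stand side by side as follows. Sult2a1 differed by 12.06 in AKP::Keap1 and 12.84 in AKP, Cyp4a12a by -8.19 and -7.57 and Slco1a1 by -6.34 and -6.44. Of the female-biased list 31 of 35 members were called in AKP, at a median of 3.81, and 0 showed a called change between genotypes in limma, with 1 higher and 6 lower at an unadjusted p below 0.05, where 12.1% and 10.9% of all autosomal genes were. Of the male-biased list 22 of 31 were called lower in AKP, at a median of -2.27.

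**Figure D3:**
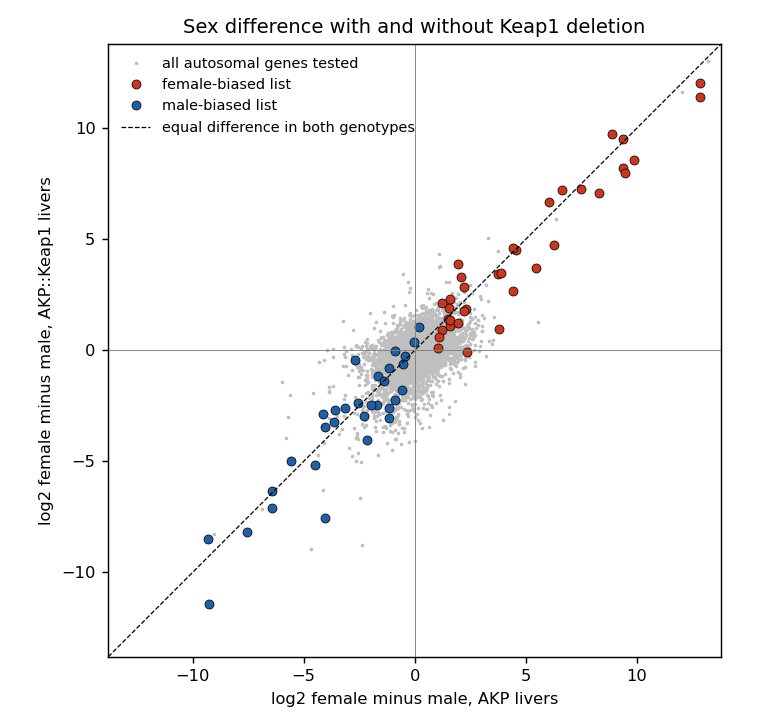
Female minus male difference of each autosomal gene on the log2 scale in AKP livers (horizontal axis) and in AKP::Keap1 livers (vertical axis), with the female-biased list in red and the male-biased list in blue. Many members of both lists lie near the dashed line of equal difference, for example Sult2a1 at 12.84 and 12.06, and others away from it, such as Cyp2g1 at 2.36 and -0.09, while the cloud of all genes is spread around 0.

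The change of the sex difference between the genotypes was tested as an interaction, the AKP::Keap1 difference minus the AKP difference. Of 15282 genes 260 were called (1.7%), 63 higher (0.412%) and 197 lower (1.29%). At 103 of those 197 the AKP::Keap1 males had the highest mean of the 4 groups, and at 48 of the 63 the AKP females had the lowest. The AKP::Keap1 males had the lowest mean at 13 of the 63. The share of such genes over all autosomal genes was not computed. A call in this test itself selects for such group means, so the choice of genes favours these counts. These calls rest on few arrays: without 1 array their number was between 0 and 49. It was 49 and 3 without the first and second AKP::Keap1 male, 0 and 0 without an AKP::Keap1 female, 32 and 0 without an AKP male and 4 and 2 without an AKP female. Where 0 genes were called in limma, 2928, 3500 and 3184 had an unadjusted p below 0.05, in the order of the arrays above. Their split was also set by the scaling, with 904 of 1150 higher with array medians aligned, 227 of 382 after normexp and 446 of 595 among genes above the median level.

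Major urinary proteins shared a direction in that test. At 8 of 8 genes the sex difference was larger in AKP::Keap1 than in AKP, a count whose share over all autosomal genes was not computed. The interaction was called lower for 3 of them, beside 1.29% of all autosomal genes. These genes are near-identical copies, so they are not separate observations. Mup5 read 4.65 and 5.10 in AKP females against 1.93 and 2.13 in AKP::Keap1 females, while males of both genotypes lay between 6.92 and 7.65. Its sex difference of -5.01 compares with -2.41 in AKP, a change of -2.60 ± 0.39 (adjusted p = 0.0443). Mup3 changed by -1.34 ± 0.22 (adjusted p = 0.049), and Mup6, named after its values were seen, by -2.70 ± 0.34 (adjusted p = 0.0339).

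A pair of male-biased genes went the other way. Gstp1 read 4.47 and 4.35 in AKP females and 6.83 and 6.64 in AKP::Keap1 females, with all 4 males between 6.93 and 7.23. Its sex difference went from -2.67 in AKP to -0.44, a change of 2.23 ± 0.21 (adjusted p = 0.0175). Susd4, a membrane regulator of complement, read 2.09 and 2.08 in AKP males and 0.98 and 0.63 in AKP::Keap1 males, with all 4 females between -2.07 and -2.01 (1.28 ± 0.20, adjusted p = 0.0461).

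Genes with the largest positive change fell into distinct patterns. Mfsd2a, a transporter of lysophosphatidylcholine, read -0.67 and -0.57 in AKP::Keap1 males and between 1.84 and 2.90 on the other 6 arrays (3.93 ± 0.35, adjusted p = 0.0168). Kyat3, a kynurenine aminotransferase, was also low in these males, at 1.29 and 1.82 against 4.27 to 4.80 elsewhere (3.05 ± 0.32, adjusted p = 0.0237). Gfra4, Chrdl2 and Hpdl instead were low in AKP females: Gfra4, a receptor subunit for a neurotrophic factor, read 3.70 and 2.86 there and between 6.27 and 6.77 on the other 6 arrays (3.32 ± 0.42, adjusted p = 0.0338). Lypd10 was well above background in AKP males only, so the size of its change, 3.74 ± 0.35 (adjusted p = 0.0175), rests on signals below background. Ggt1, a membrane enzyme that breaks down glutathione, was not well above background in any AKP liver, and its change of 2.83 ± 0.44 (adjusted p = 0.0456) is uncertain for the same reason.

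Several of the large negative changes belonged to genes that were highest in AKP::Keap1 males. Tbx10, a T-box factor, read 1.97 and 1.54 there, -2.29 and -2.48 in AKP::Keap1 females and between -2.99 and -2.46 in the AKP livers (-3.88 ± 0.31, adjusted p = 0.0161). Bard1, the partner of Brca1 in DNA repair, read 2.23 and 1.77 there and between -2.63 and -1.49 elsewhere (-3.85 ± 0.32, adjusted p = 0.0161), but its other probe had a sex difference of 0.69 in AKP::Keap1 where the one used had -3.50. Abcc12, an ABC transporter, Myod1, the muscle regulator, and Kcnab1, a potassium channel subunit, were also highest in these males, with changes of -4.11 ± 0.28, -3.48 ± 0.24 and -3.32 ± 0.29 (adjusted p = 0.0161 for each). Cryaa (-4.16 ± 0.48) and Lman1l (-3.45 ± 0.49) did so too (adjusted p = 0.0282 and 0.0402), and Cryaa was higher in males than in females in AKP as well. Tafa2, with the largest negative change, differed: it was low in AKP males, at -5.93 and -5.09, and its sex difference was 5.57 in AKP and 1.27 in AKP::Keap1 (-4.30 ± 0.41, adjusted p = 0.0175).

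**Figure D4:**
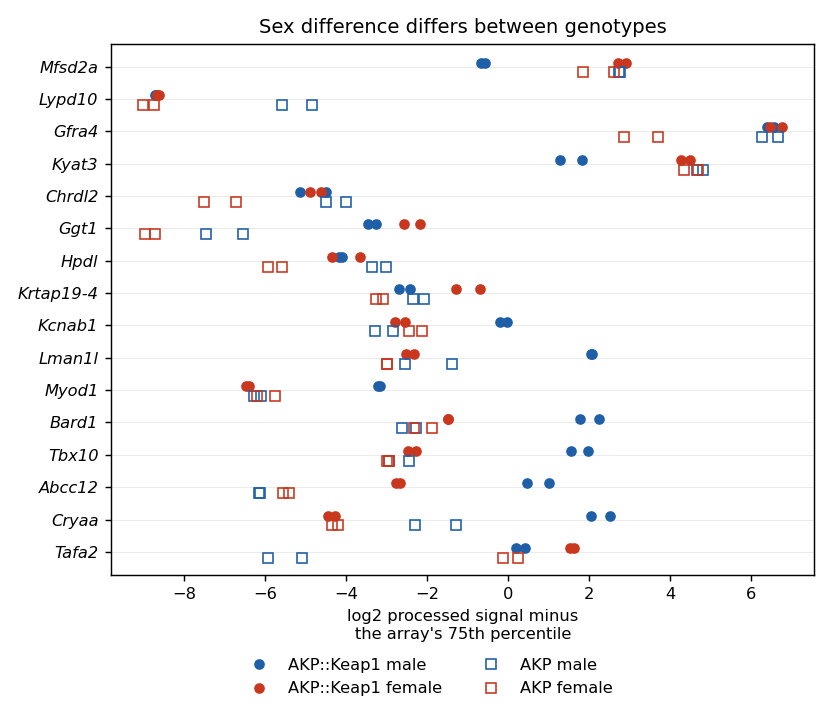
Level of each gene on all 8 arrays, as log2 processed signal relative to the array's 75th percentile, for the 16 genes with the largest called changes of the sex difference between genotypes; circles are AKP::Keap1, squares AKP, red females and blue males. Tbx10, Bard1, Myod1 and Kcnab1 have the AKP::Keap1 males alone on the right, Mfsd2a and Kyat3 have them alone on the left, and Gfra4, Chrdl2 and Hpdl have the AKP females alone on the left.

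Receptor genes of the nose were among the dim genes called lower in females. Odorant receptors are normally expressed in olfactory neurons, and 286 of 1050 passed the filter, 16 of them only through the AKP::Keap1 male arrays, so a count over these members favours the group that let them pass. Over all autosomal genes 2.57% were called lower and 1.17% higher, the background for each count of called receptor genes here. Of the 133 odorant receptors that were well above background on all 8 arrays, 24 were called lower and 3 higher in AKP::Keap1 females than in males. Their median level was -3.90 and -3.86 in AKP::Keap1 males, -4.50 and -4.67 in AKP::Keap1 females, -4.62 and -4.97 in AKP males and -4.77 and -4.71 in AKP females. Over 1132 odorant receptor probes without any filter the order was another: the medians were -8.62 and -8.54 in AKP::Keap1 males, -8.72 and -8.67 in AKP::Keap1 females, -8.38 and -8.47 in AKP males and -8.93 and -8.71 in AKP females. Vomeronasal receptors, which sense pheromones, were lower in females at 2 of 30 genes well above background on all 8 arrays, and their medians overlapped between the sexes, at -4.33 and -4.50 in males and -4.21 and -4.64 in females. Together with taste receptor and keratin-associated genes these families had 389 genes tested. They held 64 of the 393 genes lower in females and 6 of the 179 higher ones. The 64 include 5 odorant and 4 vomeronasal receptors that passed the filter only through the AKP::Keap1 males, so this count favours that group too. Of all 393, 331 had their highest group mean in AKP::Keap1 males, and of the 179 higher ones 109 had it in AKP::Keap1 females. A call in either direction itself selects for a high mean on that side, so the choice of genes favours both counts. Among the 393, 83 were not well above background on either AKP::Keap1 female array. The part of slide, scan day or background in these low signals was not tested.

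**Figure D5:**
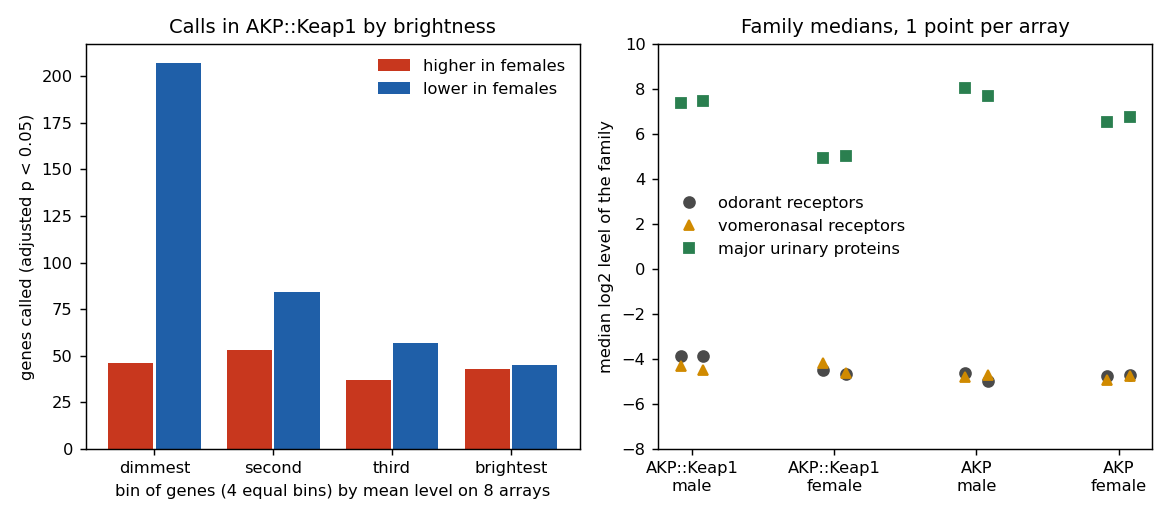
Left, number of autosomal genes called higher (red) or lower (blue) in AKP::Keap1 females, in 4 equal bins of genes ordered by mean level over all 8 arrays. Right, median log2 level of 3 gene families on each array, relative to the array's 75th percentile, for receptor genes over members well above background on all 8 arrays. Calls towards males pile up in the dimmest bin (207 against 46), the odorant receptor medians are highest in the 2 AKP::Keap1 males (-3.90 and -3.86), and major urinary proteins separate the sexes by far more (7.38 and 7.46 in the males, 4.91 and 5.0 in the females).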

How the data were processed

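Total RNA (500 ng) of whole liver was labelled with Cy3 and hybridised to Agilent mouse arrays of design 026655, 1 array per mouse, per the labels' protocols. The deposited values are processed signals, an intensity on a linear scale, made by Feature Extraction 10.7.3.1 per the file headers and by version 10.1 per the submitters' processing notes. The deposited value table held the same values with no scaling between arrays, in 355176 of 355176 cells. The flags that a spot is well above background come from the same files, and 0 spots were saturated.

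From these, log2 values were computed here, with the 75th percentile of each array subtracted. After 1377 control spots were removed, 39429 probes were left, of which 26055 carried a gene symbol (19751 symbols) and 13374 did not. A probe was kept where 2 or more of the 8 arrays had it well above background, and the brightest probe stood for a gene. limma 3.58.1 in R 4.3.3 fitted 1 mean per group over all 8 arrays with 4 residual degrees of freedom, and Benjamini-Hochberg adjustment ran over 15834 genes; the 552 genes on X, Y or an unplaced sequence were not counted. The number of arrays limits the precision. Each sample is labelled as a mouse of its own, and p-values measure the spread between these mice.

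Named genes are the 15 largest called differences in each direction without overlap, skipping clone names, the 8 largest called changes between genotypes in each direction, the list members with the smallest p, any member of the sex-biased and growth hormone lists, and Keap1. A few family members outside this rule (Mup6, Mup19, Sult1a1, Sult1d1) were chosen after their values were seen. One gene that the rule names is not reported here. The members and lists were chosen with earlier results of these data known. Alternatives changed the scaling, background correction, filter, probe rule, variance model and arrays used. The normexp alternative used the median spot signal in place of the planned mean signal, with an offset of 50. Promoters are RefSeq sequences of GRCm38.p6, matched by symbol.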

Additional observations from a re-analysis of the deposited data

Results flagged for a closer look

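The change of the sex difference from AKP to AKP::Keap1 livers was tested as an interaction in limma. The 23 genes given here passed it, besides Mup6, which is given above. The values are that change on the log2 scale, and their calls depend on single arrays, as given above.

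Among genes with a role in metabolism, transport or pheromone binding, the change was 3.93 for Mfsd2a, 3.05 for Kyat3, 2.83 for Ggt1, 2.71 for Hpdl, 2.23 for Gstp1 and 1.06 for Gstm2. It was -4.11 for the transporter Abcc12, -2.60 for Mup5 and -1.34 for Mup3. Idh1, the cytosolic isocitrate dehydrogenase that makes NADPH, changed by -1.25 (adjusted p = 0.0427). It read 2.37 and 2.15 in AKP females and between 0.56 and 0.86 on the other 6 arrays. Pparg, a nuclear receptor of lipid storage, changed by -1.49 (adjusted p = 0.0445). It read -0.39 and -0.71 in AKP males and between 0.74 and 1.04 elsewhere.

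Among the remaining genes the change was 3.74 for Lypd10, 3.32 for Gfra4, 2.95 for Chrdl2, 2.52 for Krtap19-4 and 1.28 for Susd4. It was -4.30 for Tafa2, -4.16 for Cryaa, -3.88 for Tbx10, -3.85 for Bard1, -3.48 for Myod1, -3.45 for Lman1l and -3.32 for Kcnab1.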

How the results depend on the processing

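Alternatives were run for the 30 largest named sex differences and 16 changes between genotypes, and none of these changed direction. The 572 calls (179 higher, 393 lower in females) became 1680 (83 and 1597) without scaling, 348 (79 higher) with the 4 arrays alone and 302 (160 and 142) among genes above the median level, an alternative chosen after seeing the data, where 12 female-biased genes were called. Higher calls numbered 285 of 574 with normexp and 283 of 701 with a variance trend and robust fit. In AKP livers 4588 genes were called after a median shift, 1638 without scaling and 1179 with the 4 arrays alone. The 260 interaction calls became 151 with quantile normalization, 1150 after a median shift, 520 without scaling, 111 without the filter, 520 with the trend and 595 among genes above the median level. Keap1 passed at 0.78 after a median shift, 0.74 with normexp and 0.75 with the trend and among genes above the median level.

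Leaving out 1 array gave 176 to 503 calls, 38 to 141 higher and 138 to 362 lower, 12 to 21 female-biased and 15 to 19 male-biased genes, 325 to 2603 calls in AKP and 0 to 49 interaction calls, with 2928 genes at an unadjusted p below 0.05 where it was 0 without the first AKP::Keap1 female. Keap1 ranged from 0.65 to 0.85. With the replicate block 403 genes were called (114 higher), and 56 interactions. The numbers do not pair the mice: same-numbered males and females correlated at 0.113 in AKP::Keap1, and between -0.156 and 0.123 over all pairs of groups. Signals near background limit the dim genes, and slide and scan day cannot be told apart from sex.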
